A study of Oryza sativa Japonica Group with 6 samples.

Results

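A rice line that overexpresses OsSKIPa was set against a line in which OsSKIPa is suppressed, in a comparison across the transcripts of an Affymetrix rice array. The members are the 2 arrays titled as overexpression and the 2 titled as suppression, 4 of the 6 arrays in the series, chosen by their titles alone. OsSKIPa is a splicing factor by the title of the series and belongs to the SKIP proteins, which carry an SNW domain, are found in spliceosomes and can also act with transcription factors. In plants, proteins of this family have been linked to growth, flowering time, the circadian clock and responses to drought and salt.

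The overexpression line is S58S, selected on hygromycin, with repeats 1 and 2. The suppression line is S59R, selected on G418, with repeats 1 and 3. The wild type is Zhonghua11, a Japonica cultivar, with arrays titled controls 1 and 2, and it gives no part of the difference between the lines. All 3 groups were grown in hydroponics from an age of 10 days and harvested when 1 month old, and the labels name no stress treatment. As far as the labels say, each group of transgenic plants is 1 line, so the line, its insertion and its selection drug cannot be told apart from the level of OsSKIPa. The promoters of the transgenes and the suppression method are not given in the sources used here. No probe set carried the name OsSKIPa or OsSKIPb in the tables used, so the level of the targeted gene was not analysed here; the labels state that it was prechecked by real-time RT-PCR.

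The labels call the samples shoots in one place and whole plants in another. Transcripts of green shoots were bright in all arrays: CAB2R, a chlorophyll-binding protein gene, read 30517.9 and 31304.5 in the overexpression line, 31946.3 and 30317.5 in the suppression line and 29743.8 and 32788.1 in the wild type. Root transcripts were measured as well. Lsi1, the silicon influx transporter of roots, read 3662.3 and 4646.8 in the overexpression line, 7278.2 and 5456.7 in the suppression line and 7418.7 and 4743.7 in the wild type. Values are deposited signal intensities on a linear scale and n is 2 arrays a group throughout. Pearson's r of log2 signal across probe sets, which are not independent replicates, was 0.972 within the overexpression line, 0.9707 within the suppression line and 0.9521 to 0.9586 between them. The 3' to 5' signal ratio of an actin control, which is larger where RNA is less intact, was 3.43 and 3.73 in the overexpression line, 2.82 and 2.89 in the suppression line and 2.86 and 2.75 in the wild type. A further actin ratio was 7.70 and 6.74 in the overexpression line, 6.49 and 6.25 in the suppression line and 4.83 and 7.14 in the wild type. One GAPDH ratio was 2.19 and 1.89 in the overexpression line, 1.66 and 1.90 in the suppression line and 1.87 and 1.81 in the wild type. The other was 3.88 and 4.72 in the overexpression line, 10.7 and 4.38 in the suppression line and 1.42 and 35.4 in the wild type. Both actin ratios were thus higher in the overexpression arrays than in the suppression arrays, and both GAPDH ratios overlapped. An 18S rRNA control read 5450.5 and 4992.2 in the overexpression line, 3673.9 and 3885.3 in the suppression line and 4949.6 and 5132.3 in the wild type, and a second one 4207.5 and 3759.1 in the overexpression line, 3467.8 and 2841.1 in the suppression line and 3695 and 3742.8 in the wild type. The part of these controls in the results below was not tested.

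Genes called between the lines included PHOT1A (light perception), GLK1 (chloroplast development), LHY and PCL1 (the clock), AMT1-2 (ammonium transport), CESA6 (cellulose) and PP2C30 (abscisic acid signalling). In all, 1987 of 30359 tested probe sets passed limma's test at an adjusted p of 0.05, or 6.55%. Of these, 1101 were higher in the overexpression line (3.63% of those tested) and 886 were lower (2.92%). The median size of a called difference was 0.77 on the log2 scale, a 1.71-fold change. Among called probe sets, 372 were at least 2-fold higher and 259 at least 2-fold lower, while 63 were at least 4-fold higher and 67 at least 4-fold lower. With 2 arrays against 2, the values of the lines did not overlap in 53.5% of all tested probe sets, so separation of the groups by itself is common here.

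The count rests on limma's estimate that the spread between arrays follows the signal level. Without that trend 52 probe sets passed, 39 higher and 13 lower, and 48 of them were among the 1987. With 1 array left out, the counts were 748 without overexpression array 1, 441 without overexpression array 2, 705 without suppression array 1, 978 without suppression array 3, 1383 without wild-type array 1 and 1390 without wild-type array 2. The direction of every shared call was the same in each of these fits. That was fixed in advance, because the lines did not overlap in any called probe set, and it does not measure how firm the calls are. Of the 114 called probe sets that belong to genes selected for naming, 34 kept their calls in all 6 fits without 1 array, and 7 kept them without the trend. Lost calls are named below with the array that was left out.

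**Figure D1:**
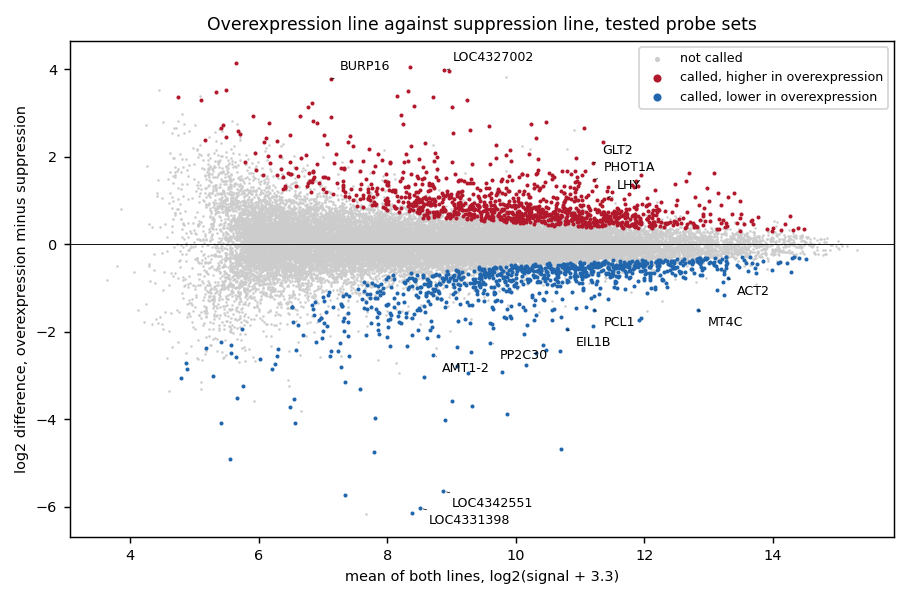
Each point is 1 tested probe set, with the mean log2 signal of both lines on the x axis and the log2 difference, overexpression minus suppression, on the y axis. Red points are the 1101 called higher in the overexpression line, blue points the 886 called lower and grey points those not called; the lowest called points reach below -6.

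The transcripts with the widest differences have locus numbers and no gene name in the tables. LOC4331398 read 16.9 and 73.7 in the overexpression line, 2381.6 and 3306.5 in the suppression line and 2.1 and 25.6 in the wild type. It was bright in the suppression line and dim in the other groups, with a log2 difference of -6.15 ± 0.82 (SE; limma adjusted p = 0.00658) and a range of -7.12 to -5.19 with 1 array left out. The other probe set of LOC4331398 gave -6.03 (adjusted p = 0.00857) and lost its call without suppression array 3. LOC4342551 had the same pattern, with 123 and 31.3 in the overexpression line, 3070.7 and 3548.9 in the suppression line and 125.4 and 85.9 in the wild type (-5.64 ± 0.51, adjusted p = 0.00144). Its estimate ran from -6.58 to -4.71 with 1 array left out.

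The 3 other loci with the lowest differences rest on less even values. LOC9268308 read 47.2 and 33.1 in the overexpression line and 3672.5 and 356.4 in the suppression line, so the suppression arrays were far apart (-4.75 ± 0.92, adjusted p = 0.0239, at least 17.8-fold lower when the overexpression line is set to the array median). Its call was lost without either overexpression array, and it no longer passed the filter on low values without either suppression array. LOC4343748 read 65.4 and 4.3 in the overexpression line against 481.3 and 312.5 in the suppression line (-4.10 ± 0.94, adjusted p = 0.0415). It kept its call only without overexpression array 1. Its smallest estimate, -2.51, came without overexpression array 2, where the call was lost. LOC4326757 was measured by 3 probe sets, all called. The 2 brighter ones gave -2.44 and -2.49, and the dim one, at least 2.71-fold lower (-4.09), lost its call without overexpression array 2 or either suppression array, with estimates from -5.13 to -3.04.

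In the other direction, LOC4327002 read 1774.7 and 1947.3 in the overexpression line, 106.8 and 125.3 in the suppression line and 1623.5 and 1138 in the wild type. Both suppression arrays were low, and the log2 difference was 3.97 ± 0.19 (adjusted p = 0.000277). LOC4324430 read 928.6 and 1881.8 in the overexpression line, 71.6 and 82.8 in the suppression line and 806.5 and 632.7 in the wild type. It differed by 4.04 ± 0.30 (adjusted p = 0.000793), LOC4337486 by 3.29 ± 0.15 (adjusted p = 0.000277), and LOC4324556 by 3.15 ± 0.18 (adjusted p = 0.000335). LOC4326332, dim in the suppression line, was at least 5.56-fold higher (3.22 ± 0.29, adjusted p = 0.00138). All 5 kept their calls in the 6 fits without 1 array, and LOC4324430 alone among them lost its call without the variance trend (adjusted p = 0.0518).

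Of 2249 tested genes with a name, 108 had a probe set called higher and 132 had one called lower. Counted the same way, 747 of all 16099 tested genes had one called higher and 657 had one called lower. Whether named genes differ from the rest in this was not tested. BURP16, a member of the plant BURP domain proteins, had the widest rise among the named genes. It read 642.8 and 407.2 in the overexpression line, 72.1 and 15.7 in the suppression line and 203.9 and 317 in the wild type (3.77 ± 0.58, adjusted p = 0.0108). Its call was lost without either overexpression array, and its estimate ran from 2.77 to 4.76. BURP17, which was much brighter, was higher by 0.48 ± 0.10 (adjusted p = 0.0285) and lost its call without any 1 of the 4 transgenic arrays.

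Sugar genes were called in both directions. SWEET14, a sugar efflux transporter of the SWEET family, read 315.4 and 348.9 in the overexpression line, 73.1 and 101 in the suppression line and 180.6 and 187.7 in the wild type (1.91 ± 0.24, adjusted p = 0.00463). The other probe set of SWEET14 gave 1.52 ± 0.19 (adjusted p = 0.00455) and kept its call in all fits without 1 array, while the first lost its call without overexpression array 2. Of 10 SWEET genes tested, SWEET14 was the 1 called. SUS4, a sucrose synthase gene, was higher by 1.06 ± 0.16 (adjusted p = 0.0104; lost without either overexpression array). Sbe1, a starch branching enzyme gene, was lower, with 3641 and 3908.3 in the overexpression line against 7015.7 and 6060.3 in the suppression line (-0.79 ± 0.11, adjusted p = 0.00736). Of its 4 tested probe sets 3 were called, each of them lower. Over 37 tested genes of sugar transport and of sucrose or starch synthesis, 2 were higher and 4 lower, or 16.2%. The share over all 16099 genes tested with 1 probe set each was 8.25%, with 4.35% higher and 3.9% lower, and that share is the background for each list of genes below. The median log2 difference of the sugar list was -0.03, against -0.02 over all these genes.

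**Figure D2:**
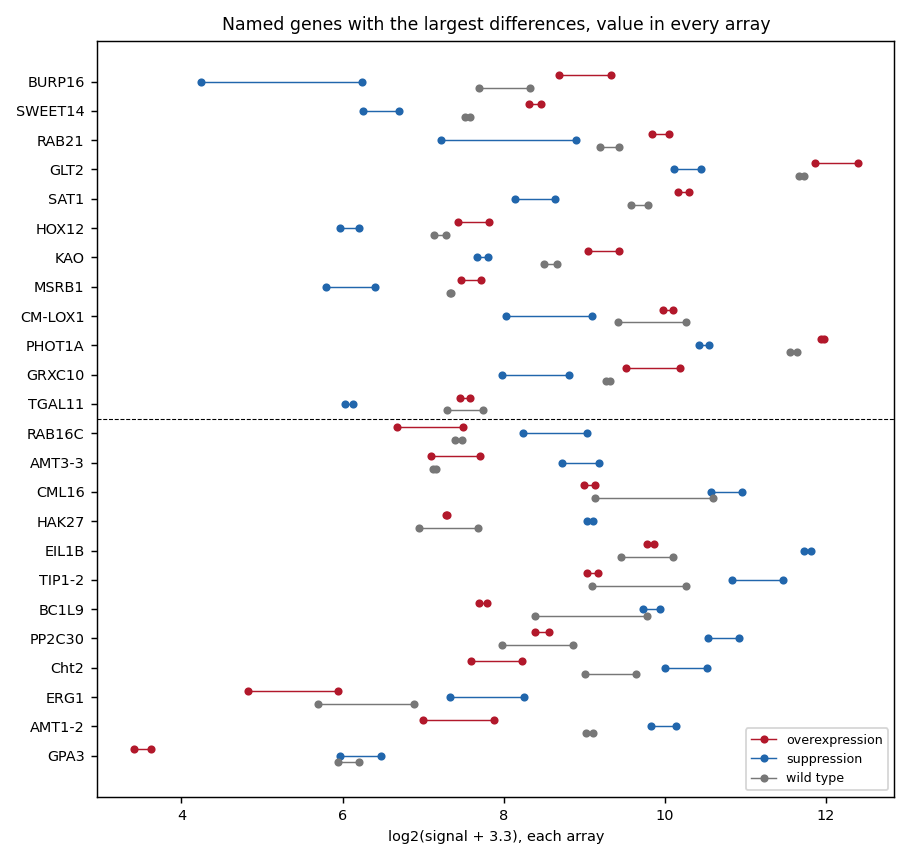
The 12 named genes with the largest rises, above the dashed line, and the 12 with the largest falls, below it, are shown as log2(signal + 3.3) in every array. Red points are the 2 overexpression arrays, blue the 2 suppression arrays and grey the 2 wild-type arrays. Only genes whose red and blue points do not overlap could enter the figure. The grey points of BC1L9, CML16 and TIP1-2 are far apart.

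Other genes among the 12 largest rises differed as follows. SAT1 read 1252.3 and 1144.5 in the overexpression line against 279.9 and 394.7 in the suppression line (1.84 ± 0.18, adjusted p = 0.00193), and kept its call with any 1 array left out. KAO, the oxidase that turns ent-kaurenoic acid into a gibberellin precursor, read 526.9 and 683.9 in the overexpression line against 199.5 and 219.9 in the suppression line (2.84-fold higher, SE 0.18 on the log2 scale, adjusted p = 0.00435), and kept its call likewise. For SAT1 and KAO the wild-type arrays lay between those of the lines. A dim probe set of SAT1 gave 0.68 (adjusted p = 0.449). HOX12, a homeodomain-leucine zipper factor (1.53 ± 0.28, adjusted p = 0.0194), and TGAL11, a bZIP factor of the TGA group (1.44 ± 0.27, adjusted p = 0.0222), lost their calls without any 1 of the 4 transgenic arrays. HOX12 was the 1 called of 42 tested homeodomain and KNOX genes, or 2.38%, below the background. Of 20 bZIP factors tested, 2 were higher and 2 lower, or 20%. MSRB1, a methionine sulfoxide reductase (1.49 ± 0.30, adjusted p = 0.0259), lost its call without either overexpression array or suppression array 3, and its brighter probe set gave -0.33 (adjusted p = 0.281). GRXC10, a glutaredoxin (1.46 ± 0.29, adjusted p = 0.027), lost its call without overexpression array 2, suppression array 1 or either wild-type array. CM-LOX1, a lipoxygenase (1.48 ± 0.36, adjusted p = 0.0488), lost its call without either overexpression array or suppression array 1, and after quantile normalization.

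The photoreceptor list gave 2 called of 7 tested, both higher. Plants sense blue light through phototropins and cryptochromes and red light through phytochromes. PHOT1A, a phototropin, read 3906.8 and 4023.1 in the overexpression line, 1367.7 and 1494.7 in the suppression line and 3009.2 and 3175.4 in the wild type. The arrays within each line were close together, and the log2 difference was 1.47 ± 0.10 (adjusted p = 0.000578), a call that also held without the variance trend (adjusted p = 0.0497). PHYA, a phytochrome, read 2587.8 and 2074.4 in the overexpression line against 1255.9 and 1535.4 in the suppression line (0.74 ± 0.14, adjusted p = 0.0243; lost without overexpression array 1 or suppression array 1). The other probe set of PHYA gave 0.84 (adjusted p = 0.0103; lost without either overexpression array). PhyB differed by -0.09 (adjusted p = 0.655), phyC by 0.22 (adjusted p = 0.199) and PHOT2 by -0.06 (adjusted p = 0.857).

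Of 15 genes of chlorophyll synthesis and its regulation, 4 were higher and none was lower, or 26.7% against 8.25% of all genes, and the list's median was 0.17. GLK1 and GLK2 are transcription factors that promote chloroplast development. GLK1 read 1475.1 and 1964.6 in the overexpression line, 756.4 and 703.1 in the suppression line and 1174.2 and 1798.8 in the wild type (1.22 ± 0.21, adjusted p = 0.0169). GLK2 read 3932.3 and 4300.1 in the overexpression line, 2902.7 and 2445.2 in the suppression line and 3351.8 and 3501.1 in the wild type on its brightest probe set (0.63 ± 0.11, adjusted p = 0.0175). A dim probe set of GLK2 was called as well, at least 2.42-fold higher, with 143.1 and 153.5 in the overexpression line against 55 and 58.3 in the suppression line, and lost its call in each fit without 1 array. The other 2 probe sets of GLK2 gave 0.76 (adjusted p = 0.246) and -0.06 (adjusted p = 0.851), so its probe sets disagree. The synthesis enzymes called were CAO, the oxygenase that makes chlorophyll b (0.83 ± 0.15, adjusted p = 0.0197), and CHLH, a subunit of magnesium chelatase (0.52 ± 0.11, adjusted p = 0.0312). GLK1 lost its call without overexpression array 2 or either suppression array, the brightest GLK2 set and CAO without either overexpression array or suppression array 3, and CHLH without any 1 of the 4 transgenic arrays.

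The summed signal of 7 green shoot markers, which include GLK1 and GLK2, was 86617 and 93300.7 in the overexpression line, 90759.2 and 86842.7 in the suppression line and 86774.2 and 94283.2 in the wild type. These sums overlap between the lines. RBCS, a small subunit gene of Rubisco, differed by -0.13 (adjusted p = 0.386) and CAB2R by -0.01 (adjusted p = 0.954). Of 7 genes for light harvesting and photosystems, rca, the Rubisco activase gene, was the 1 called, at 0.37 ± 0.07 (adjusted p = 0.0266) on 1 of 4 probe sets; that call was lost without either overexpression array, suppression array 3 or either wild-type array.

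The circadian clock of plants runs on transcription factors that repress each other at different times of day. LHY, a MYB factor expressed around dawn, read 3764.2 and 4242.5 in the overexpression line, 1941.8 and 1886.3 in the suppression line and 3339.4 and 2955.5 in the wild type (1.06 ± 0.11, adjusted p = 0.00199). PCL1, the evening factor also known as LUX in Arabidopsis, read 1492.5 and 1331.2 in the overexpression line, 3602.2 and 4474.3 in the suppression line and 1941.3 and 2430.5 in the wild type (-1.51 ± 0.15, adjusted p = 0.00193). LHY was thus higher and PCL1 lower in the overexpression line, and both calls held with any 1 array left out. The other 8 tested genes of the clock and flowering list were not called. GI differed by 0.04 (adjusted p = 0.814), PRR1 by 0.23 (adjusted p = 0.238), PRR73 by 0.28 (adjusted p = 0.096), and PRR95 by 0.21 (adjusted p = 0.201). The hour of collection is not given in the labels.

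Nitrogen uptake and assimilation had 6 called of 15 tested genes, or 40%, with 1 higher and 5 lower, and a median of 0.04. Rice takes up ammonium through AMT transporters, and glutamine synthetase and glutamate synthase build it into amino acids. Of 6 ammonium transporter genes tested, 3 were lower. AMT1-2 read 124.6 and 232 in the overexpression line, 1122.1 and 905.9 in the suppression line and 517.8 and 550.8 in the wild type (-2.54 ± 0.27, adjusted p = 0.00247). AMT3-3 read 205.7 and 133.4 in the overexpression line, 418.5 and 578.4 in the suppression line and 139.7 and 135.8 in the wild type (-1.55 ± 0.26, adjusted p = 0.0155; lost without overexpression array 2 or suppression array 3). AMT3-2 was lower by a log2 difference of -1.31 ± 0.20 (adjusted p = 0.0101; lost without overexpression array 2). The wild type lay between the lines for AMT1-2 and at the level of the overexpression line for AMT3-3.

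GLT2, a glutamate synthase, went the other way, with 3716.7 and 5396.1 in the overexpression line, 1398.2 and 1104.9 in the suppression line and 3234.7 and 3379.1 in the wild type (1.85 ± 0.18, adjusted p = 0.00193). The cytosolic glutamine synthetase genes GLN1-2 and GLN1-1 were lower. GLN1-2 read 2547.4 and 4035 in the overexpression line against 6728.6 and 6437.2 in the suppression line (-1.04 ± 0.18, adjusted p = 0.0184; lost without either suppression array). GLN1-1 differed by -0.50 ± 0.08 (adjusted p = 0.0138; lost without either overexpression array or suppression array 1). GLN2, the chloroplast form, differed by -0.01 (adjusted p = 0.976) and Fd-GOGAT, the ferredoxin-dependent glutamate synthase of leaves, by 0.04 (adjusted p = 0.808).

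AMT1-2 is also 1 of 7 tested root-preferred markers. The summed signal of these markers was 5185.7 and 6460.5 in the overexpression line, 11562.8 and 8025.7 in the suppression line and 10452.1 and 7010.9 in the wild type. The sums of the lines do not overlap, and the overexpression sums were the lower ones. Lsi1 alone made up most of each sum. The estimates of 3 markers were above 0 and those of 4 below 0. Of the 7 markers, AMT1-2 was lower and IRT1, an iron transporter, was higher, with a list median of -0.61; Lsi1 differed by -0.61 (adjusted p = 0.144) and Lsi2, the silicon efflux transporter, by -1.07 (adjusted p = 0.0759). In whole-plant RNA, less root tissue and less of a transcript per root cell cannot be told apart. The part of root content in the differences of AMT1-2 and the aquaporins was not tested.

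**Figure D3:**
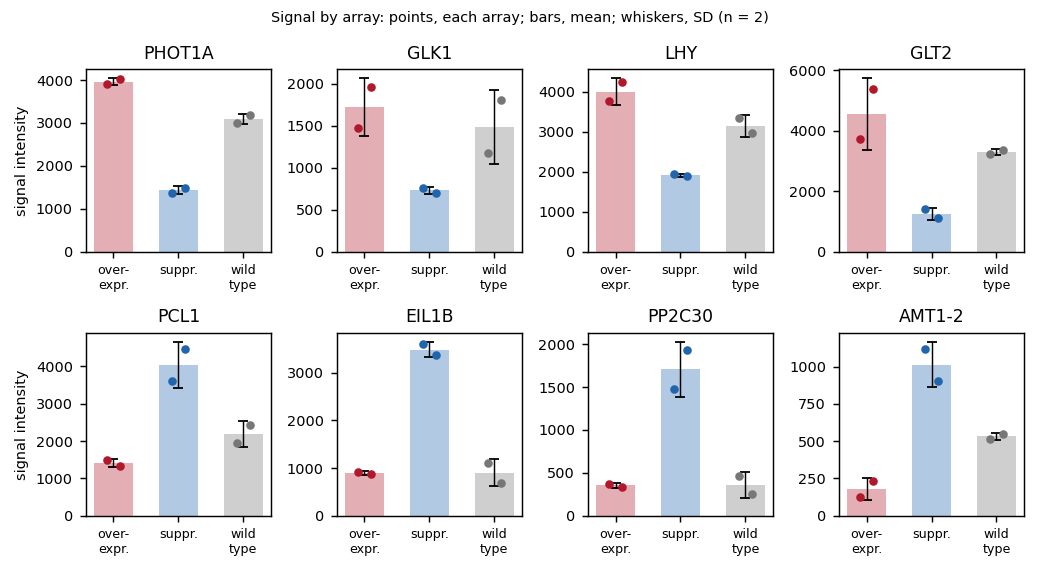
Signal intensity of 8 genes of light perception, chloroplast regulation, the clock, nitrogen, ethylene and abscisic acid signalling. Points are single arrays, bars are means and whiskers SD of n = 2, with overexpression left, suppression in the middle and wild type right; PHOT1A, GLK1, LHY and GLT2 are higher and PCL1, EIL1B, PP2C30 and AMT1-2 lower in the overexpression line than in the suppression line.

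Membrane transport genes with wide falls included aquaporins and a potassium transporter. TIP1-2, a vacuolar aquaporin, read 522.6 and 573.9 in the overexpression line, 2823.1 and 1823.5 in the suppression line and 1224.4 and 543.9 in the wild type (-2.04 ± 0.35, adjusted p = 0.0155). PIP1-3, an aquaporin of the plasma membrane, differed by -1.43 ± 0.30 (adjusted p = 0.0302). These were the 2 called of 20 aquaporins tested, or 10%, close to the background, and both lost their calls without either overexpression array or suppression array 1. HAK27, a potassium transporter of the HAK family, read 152.6 and 153.3 in the overexpression line, 548.1 and 521.9 in the suppression line and 201.4 and 120.7 in the wild type (-1.78 ± 0.25, adjusted p = 0.00808; lost without overexpression array 2 or suppression array 1). HAK27 was the 1 called of 21 tested genes of potassium and sodium transport, or 4.76%, a share below the background.

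Metal genes were called in both directions, 3 higher and 4 lower of 44, or 15.9%, with a median of -0.09. MT4C, a metallothionein gene, read 4097.6 and 4575.6 in the overexpression line, 13343.5 and 11404.5 in the suppression line and 11327.4 and 9985.9 in the wild type (-1.51 ± 0.11, adjusted p = 0.000765). Here the overexpression line stood apart, and MT4C was also called against the wild type (-1.30 ± 0.11, adjusted p = 0.00915). Metallothioneins bind metal ions, and 3 of 7 tested were lower. IRT1, an iron transporter, was higher by 1.36 ± 0.25 (adjusted p = 0.0199; lost without overexpression array 2 or either suppression array), and 0sFRO1, a ferric reductase as spelled in the table, by 1.03 ± 0.18 (adjusted p = 0.0184; lost without any 1 of the 4 transgenic arrays).

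Abscisic acid is the hormone of drought and seed dormancy. Its receptors inhibit type 2C protein phosphatases, which otherwise keep SnRK2 kinases (SAPK in rice) inactive, and the kinases act on bZIP factors. Of 65 genes of this pathway tested, 3 were higher and 8 lower, or 16.9%, with a median of -0.10. PP2C30, a type 2C phosphatase, read 374.5 and 332.8 in the overexpression line, 1479.5 and 1932 in the suppression line and 461.9 and 247.9 in the wild type (-2.25 ± 0.27, adjusted p = 0.00437). The suppression line was the high one, and the wild type lay at the level of the overexpression line. OsABIL1, which the table also lists as PP2C06, read 1276.5 and 1268.8 in the overexpression line, 3309.8 and 2251.1 in the suppression line and 1220.8 and 1211.8 in the wild type (-1.10 ± 0.17, adjusted p = 0.0108; lost without either overexpression array). Of 52 type 2C phosphatase genes tested, 5 were lower and 3 higher. Besides these 2, and named after their values were seen, the lower ones were PP2C68 (-1.25), OsPP2C09 (-0.98) and OsPP2C08 (-0.77), and the higher ones OsPP2C39 (0.94), OsPP2C14 (0.59) and OsPP2C10 (0.52). Each of these 6 lost its call in at least 4 of the 6 fits without 1 array.

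Downstream in that pathway, SAPK7, a SnRK2 kinase, differed by -0.63 ± 0.11 (adjusted p = 0.016), and 2 of 10 SAPK genes were lower. BZIP23, a bZIP factor of abscisic acid responses, read 1058.4 and 1028.3 in the overexpression line against 2267 and 1677.3 in the suppression line (-0.90 ± 0.16, adjusted p = 0.0167). SAPK7 and BZIP23 lost their calls without either overexpression array or suppression array 1.

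Dehydrins and other genes of osmotic stress went both ways, with 2 higher and 4 lower of 18, or 33.3%, and a median of -0.15. Dehydrins are hydrophilic proteins that accumulate on drying. RAB21 read 1053.8 and 914.2 in the overexpression line, 472.7 and 145.8 in the suppression line and 583.9 and 685.6 in the wild type (1.89 ± 0.44, adjusted p = 0.043), with estimates from 1.05 to 2.72 when 1 array was left out. RAB16C read 98.8 and 177.8 in the overexpression line, 298.6 and 519.1 in the suppression line and 176.1 and 164.8 in the wild type (-1.55 ± 0.34, adjusted p = 0.036). These 2 belong to a family of near-identical dehydrins, so signal could be shared between their probe sets. RAB21 lost its call without either overexpression array or either wild-type array, and RAB16C without either overexpression array, suppression array 3 or either wild-type array; both also lost it with the 4 transgenic arrays alone in the fit. Dhn1, another dehydrin, differed by -0.61 ± 0.11 (adjusted p = 0.0194; lost without overexpression array 2 or either suppression array). The trehalose phosphate phosphatase genes split, with TPP7 higher by 1.07 ± 0.17 (adjusted p = 0.0129; lost without overexpression array 2 or suppression array 3) and TPP1 lower at -1.30 ± 0.26 (adjusted p = 0.0255; lost without any 1 of the 4 transgenic arrays).

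Ethylene signalling genes of the EIN3 type moved apart. EIL1B, an EIN3-like transcription factor, read 927.1 and 871.6 in the overexpression line, 3601.3 and 3373 in the suppression line and 1098 and 696.6 in the wild type (-1.95 ± 0.19, adjusted p = 0.00193), a call that held with any 1 array left out. EIL1A, its brighter relative, was higher by 0.42 ± 0.07 (adjusted p = 0.0163; lost without any 1 of the 4 transgenic arrays), while a dim probe set of EIL1A gave -0.13 (adjusted p = 0.825). The other 7 ethylene genes tested were not called. In the cytokinin list 3 of 26 genes were higher and none lower, or 11.5%. These were HK5, a histidine kinase receptor (0.61 ± 0.10, adjusted p = 0.015), LOGL7, of the family that releases active cytokinin (0.64 ± 0.11, adjusted p = 0.015), and CKX11, an oxidase that degrades it (0.90 ± 0.19, adjusted p = 0.0314). A dim probe set of LOGL7 gave -0.34 (adjusted p = 0.705). HK5 and LOGL7 lost their calls without any 1 of the 4 transgenic arrays, and CKX11 without either overexpression array or suppression array 1. In the jasmonate list, 1 of 35 genes was higher (CM-LOX1) and 2 were lower, or 8.57%, close to the background. The lower ones were OPR-1, an oxophytodienoate reductase-like gene (-1.33 ± 0.23, adjusted p = 0.0163; lost without overexpression array 2 or suppression array 1), and OPR7 (-0.70 ± 0.14, adjusted p = 0.0281; lost without either overexpression array or suppression array 1). TIFY5 did not separate the lines, at 1634.3 and 792.5 in the overexpression line, 1205 and 1275.4 in the suppression line and 1.8 and 2 in the wild type (-0.12, adjusted p = 0.861).

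Genes of cellulose and hemicellulose synthesis had the lowest median of the lists that are not tissue markers. Of 33 such genes tested, 1 was higher and 6 were lower, or 21.2%, and the median was -0.38, with 26 of the 33 estimates below 0. One-sided estimates were not particular to this list. They were below 0 for 26 of 32 ribosomal and translation genes and 19 of 25 common reference genes, and above 0 for 9 of 10 clock and flowering genes. CESA genes encode the catalytic subunits of cellulose synthase. CESA6 read 4116.2 and 3436.1 in the overexpression line, 6359.2 and 7013.9 in the suppression line and 4445.3 and 4421.5 in the wild type (-0.83 ± 0.11, adjusted p = 0.00587). CESA1 read 8009 and 7588.1 in the overexpression line, 11300.9 and 12548.9 in the suppression line and 8399.7 and 8388.1 in the wild type (-0.61 ± 0.08, adjusted p = 0.00674; lost without overexpression array 2). In both, the wild type lay near the overexpression line. The other 7 CESA genes tested were not called. CESA4 (-0.24, adjusted p = 0.458) and CESA7 (0.01, adjusted p = 0.971), which serve secondary walls, were among those. BC1L9, a COBRA-like gene of the wall, read 203 and 217.9 in the overexpression line against 843.9 and 982.3 in the suppression line, with 874.5 and 330.5 in the wild type (-2.10 ± 0.37, adjusted p = 0.0187; lost without any 1 of the 4 transgenic arrays).

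Lignin genes were called in both directions, 3 higher and 1 lower of 25, or 16%. LAC7, a laccase, read 5927.7 and 8394.2 in the overexpression line against 3040.6 and 2926.1 in the suppression line (1.24 ± 0.15, adjusted p = 0.00435). CAD3, a cinnamyl alcohol dehydrogenase, read 2506.2 and 2884.1 in the overexpression line, 4465.9 and 4577 in the suppression line and 2527.1 and 2367.6 in the wild type (-0.75 ± 0.10, adjusted p = 0.00702). LAC7 and CAD3 kept their calls with any 1 array left out. PAL06, a phenylalanine ammonia-lyase, differed by 1.08 ± 0.20 (adjusted p = 0.0216) and lost its call without either overexpression array or suppression array 1. The other probe set of PAL06 gave 0.48 (adjusted p = 0.28).

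**Figure D4:**
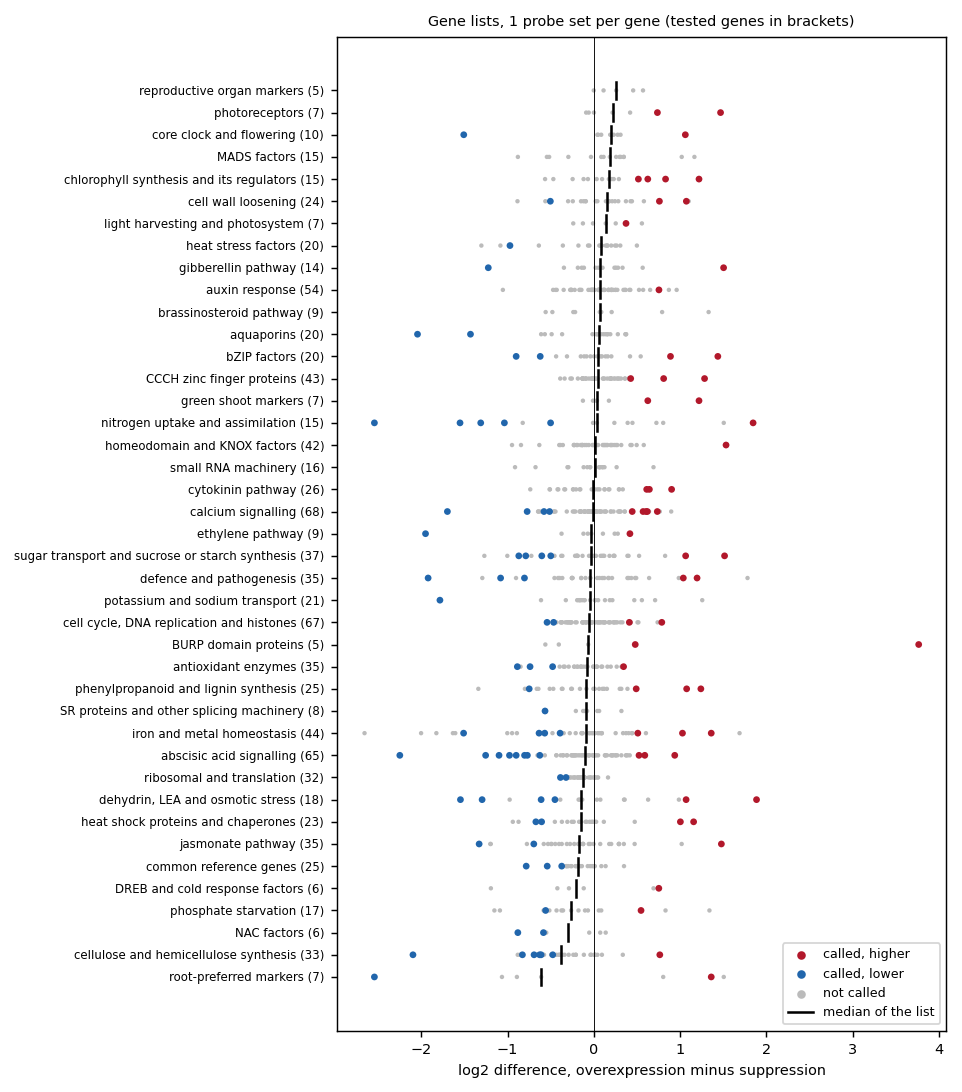
Each row is a list of genes with its number of tested members in brackets, ordered by median, and each point is the log2 difference, overexpression minus suppression, of 1 gene. Red points were called higher, blue called lower and grey not called, and black bars are medians; the root-preferred markers (-0.61) and cellulose and hemicellulose synthesis (-0.38) have the lowest medians and the nitrogen list has called members on both sides.

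Defence genes gave 2 higher and 3 lower of 35, or 14.3%. Cht2, a chitinase, read 296.9 and 190 in the overexpression line, 1022.5 and 1471.8 in the suppression line and 798.1 and 511.5 in the wild type (-2.35 ± 0.29, adjusted p = 0.00443), and the other probe set of Cht2 gave -1.92 (adjusted p = 0.0314; lost without either overexpression array or suppression array 3). Germin-like genes, which encode small proteins of the cell wall, split. GER3 (1.20 ± 0.20, adjusted p = 0.015) and GER1 (1.04 ± 0.21, adjusted p = 0.0256) were higher, and GER7 was lower at -0.80 ± 0.15 (adjusted p = 0.0205). GER3 and GER1 lost their calls without either overexpression array or suppression array 1, and GER7 without any 1 of the 4 transgenic arrays. ERG1, an elicitor-responsive gene, was at least 3.44-fold lower (-2.41 ± 0.56, adjusted p = 0.0427), with 58.1 and 25 in the overexpression line against 158.1 and 302.3 in the suppression line, and lost its call without any 1 of the 4 transgenic arrays. GPA3, which in rice seeds takes part in the transport of storage proteins, was at least 1.15-fold lower (-2.71 ± 0.63, adjusted p = 0.0422), with 9 and 7.3 in the overexpression line against 59.1 and 85.7 in the suppression line. GPA3 lost its call in each fit without 1 array, and its much brighter probe set gave -0.10 (adjusted p = 0.635).

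In calcium signalling, 5 of 68 genes were higher and 4 lower, or 13.2%, with a median of -0.01. CML16, a calmodulin-like gene, read 508 and 560.2 in the overexpression line, 1987.7 and 1519.2 in the suppression line and 1548.8 and 556.8 in the wild type (-1.70 ± 0.39, adjusted p = 0.0422; lost without any 1 of the 4 transgenic arrays). CIPK2, a kinase that works with calcium sensors, read 3462.3 and 3197.6 in the overexpression line, 5516.5 and 5864.9 in the suppression line and 3499.5 and 3182.1 in the wild type (-0.77 ± 0.10, adjusted p = 0.00455). Its call held with any 1 array left out. A dimmer probe set of CIPK2 was called lower too (-0.77, adjusted p = 0.0406) and lost its call in each fit without 1 array, and the dimmest gave 2.26 (adjusted p = 0.125), so its probe sets disagree. OsC3H37, a CCCH zinc finger gene, was higher by 1.28 ± 0.13 (adjusted p = 0.00193) and likewise kept its call; 3 of 43 genes of that family were higher and none lower, a share of 6.98%, near the background. Of 23 tested genes for heat shock proteins and chaperones, 2 were higher and 2 lower, or 17.4%. Among the small heat shock protein genes, hsp17.9 was higher by 1.16 ± 0.16 (adjusted p = 0.00685). HSP18.8 was higher by 1.00 ± 0.15 (adjusted p = 0.0107) and lost its call without overexpression array 2 or suppression array 1. HSP18.0 was lower at -0.67 ± 0.10 (adjusted p = 0.00895) and lost its call without overexpression array 1. The probe sets of HSP18.0 disagree, since the other 2 gave 0.36 (adjusted p = 0.218) and 0.02 (adjusted p = 0.942). GSTU6, a glutathione transferase, was lower, with 2188.1 and 2210.5 in the overexpression line against 4105.6 and 4032.7 in the suppression line (-0.89 ± 0.09, adjusted p = 0.00196), and kept its call with any 1 array left out.

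Of 8 genes for SR proteins and other splicing machinery tested, 1 was lower, or 12.5%. RSZ21A, an SR protein gene, read 1111 and 1063.8 in the overexpression line, 1540.5 and 1684 in the suppression line and 1081.7 and 1192.3 in the wild type on its brightest probe set (-0.57 ± 0.11, adjusted p = 0.0279; lost without any 1 of the 4 transgenic arrays). The other 2 probe sets of RSZ21A gave -0.01 (adjusted p = 0.975) and -0.32 (adjusted p = 0.325). A probe set reads a transcript's 3' part, so splicing itself was not measured.

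No gene of 9 for brassinosteroids, of 16 for small RNA machinery, of 15 MADS factors or of 5 markers of reproductive organs was called. At an unadjusted limma p under 0.05 were 4 of the brassinosteroid genes, 2 of the small RNA genes, 4 of the MADS genes and 1 of the reproductive markers, against 26.8% of all 16099 genes. Of 25 genes often used as constant references, 3 were lower and none higher, or 12%, and the median was -0.18. ACT2, an actin gene, read 8022.2 and 7371.4 in the overexpression line, 13631.3 and 12864.7 in the suppression line and 10224.8 and 10642.6 in the wild type (-0.78 ± 0.08, adjusted p = 0.00208), a call that held with any 1 array left out. GAPC3, a glyceraldehyde phosphate dehydrogenase gene, differed by -0.54 ± 0.09 (adjusted p = 0.0129; lost without overexpression array 2 or suppression array 1), and TUBB3, a tubulin gene, by -0.37 ± 0.07 (adjusted p = 0.0249; lost without either overexpression array, suppression array 3 or either wild-type array). The other 2 probe sets of TUBB3, both dimmer, gave -0.44 (adjusted p = 0.131) and 0.55 (adjusted p = 0.377).

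The wild type was not part of the difference, but its level shows on which side of it each line lies. Of the 1987 called probe sets, the wild-type mean lay between the lines in 1734, or 87.3%, against 45.6% of all tested. It lay nearer to the overexpression line in 1633, or 82.2%, against 59.8% of all tested. On a scale with the overexpression mean at 1 and the suppression mean at 0, the median position of the wild type was 0.72 for called and 0.67 for all tested probe sets. Called probe sets were picked for a wide gap between the lines, which by itself raises the share of wild-type means inside it. The values over all tested probe sets are therefore not a like baseline for the called ones. From the same fit, the suppression line differed from the wild type in 589 of the 1987, with 226 higher and 363 lower. Over all tested probe sets 2.27% were called in that comparison, 0.935% higher and 1.33% lower. The overexpression line differed from the wild type in 2 of the 1987, against 0.0362% of all tested (0.0264% higher and 0.00988% lower), and 1397 of the 1987 were called in neither comparison. PHOT1A was lower in the suppression line than in the wild type (-1.11 ± 0.10, adjusted p = 0.00228), and EIL1B (1.99 ± 0.19, adjusted p = 0.00349) and PP2C30 (2.31 ± 0.27, adjusted p = 0.00651) were higher there. The 3 comparisons share arrays, so their calls are not independent, and whether the lines lie at different distances from the wild type was not tested.

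**Figure D5:**
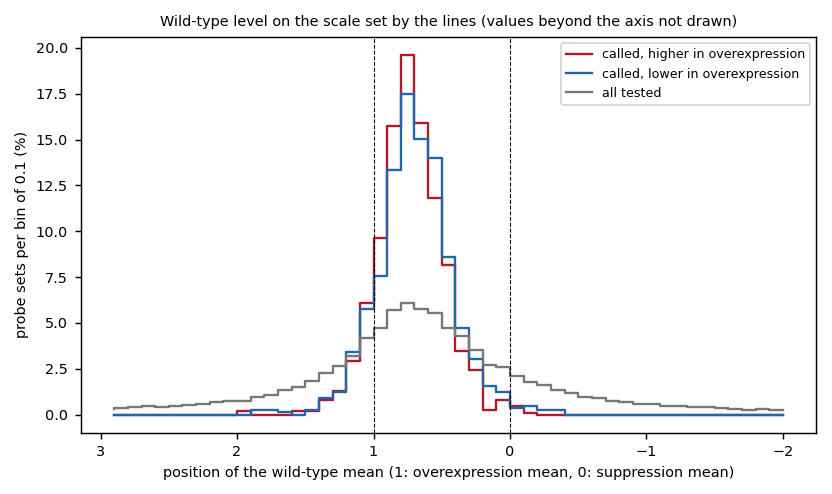
The x axis gives the wild-type mean on the scale set by the lines, with 1 at the overexpression mean and 0 at the suppression mean (dashed lines), and the y axis the percentage of probe sets per bin of 0.1. Red and blue lines are probe sets called higher and lower in the overexpression line and the grey line is all tested; 82.2% of called probe sets lie nearer to the overexpression line.

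Among 2473 genes with several tested probe sets, 324 had at least 1 called, and all were called in 63 of these. LOC4325919 was the 1 gene with calls in both directions, and is named after its values were seen. Its first probe set read 585.6 and 635.2 in the overexpression line, 2331.1 and 2057.2 in the suppression line and 803.6 and 734.7 in the wild type (-1.84 ± 0.13, adjusted p = 0.000608). A further probe set read 1212.9 and 1361.4 in the overexpression line, 664.2 and 699.7 in the suppression line and 1137.7 and 1003.4 in the wild type (0.91 ± 0.13, adjusted p = 0.00758). The remaining one gave 0.21 (adjusted p = 0.566). In both called sets the suppression line stood apart from the other groups, and the sequences that these probe sets match were not analysed here.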

How the data were processed

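RNA of 6 rice samples was measured on 1-colour Affymetrix arrays; 6 µg of total RNA, extracted with TRIzol, gave biotinylated cRNA per the labels' protocols. The authors deposited signal intensity, not on a log scale, for 57381 probe sets. The labels do not name the software that summarised probes. The trimmed mean (2% at either end) was 500.06 in every array, so the authors had scaled the arrays before they deposited them, and each value is relative to the rest of its array. Array medians were 58.4 to 66, their largest ratio was 1.13, and the deposited scale was kept.

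The 123 control and 64 reporter probe sets were left out, which left 57194. The filter on low values kept probe sets above the array's median in 2 or more of the 6 arrays (30359 tested, 26835 not). The pseudocount of 3.3 in log2(value + 3.3) was the 10th percentile of all values; differences are on that scale and understate changes of dim probe sets. limma 3.58.1 in R 4.3.3 fitted the 3 groups without covariates, and the contrast was overexpression minus suppression, so the wild-type arrays entered the estimate of the spread and the filter only. eBayes with a variance trend gave 5.21 prior degrees of freedom beside 3 residual ones. Two-sided tests had Benjamini-Hochberg adjustment over all tested probe sets at 0.05; a called probe set passed it. At an unadjusted p under 0.05, 7003 passed. An exact permutation of 2 against 2 arrays could not reach that threshold. Where the dimmer line was under the array median in both arrays, the median stood in for it and the fold is written as "at least". The procedure was tested on simulated data, where false calls made up a larger share than the threshold allows, so calls near the threshold are less sure than their adjusted p says. Each simulated probe set had the spread typical of its signal level. The simulation therefore cannot show how many calls are false where the real spread departs from that level. P-values measure the spread between samples that the labels call biological repeats; 2 arrays a group limit the precision.

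Names came from the platform's probe table, matched through a gene table of assembly ASM3414082v1 (names only). Of the probe sets, 22436 had exactly 1 gene; 482 called ones had none or several. Of 16099 tested genes, lists use the brightest probe set each. The genes named were those with the 12 widest differences in either direction among calls with a single named gene and no overlap of the lines, up to 3 called members per list, 15 fixed genes, and the 5 largest rises and falls among loci without a name. Families with 5 or fewer called members may be named in full. The arrays compared, the gene lists and the rules were chosen with earlier results of these data known. Genes that a list's name pattern had caught wrongly were removed, by name, after values had been seen. Uncalled list members given for comparison were picked after their values were seen. Sequences were not used here, and a planned search of promoters for motifs was not run.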

Additional observations from a re-analysis of the deposited data

Results flagged for a closer look

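The 64 reporter probe sets, which were outside the comparison, included 4 with both arrays of 1 line above the array median and over 10 times the highest wild-type value. The first read 12415 and 14859.8 in the overexpression line, and at most 12.7 in the suppression line and 4.4 in the wild type. The second read at most 23.6 in the overexpression line, 1670.6 and 1729.1 in the suppression line and at most 11.2 in the wild type. The third read at most 39.6 in the overexpression line, 247.4 and 207.1 in the suppression line and at most 5.8 in the wild type. The fourth read at most 62.8 in the overexpression line, 705.9 and 577.4 in the suppression line and at most 55 in the wild type. These probe sets are named by sequence accession alone, and what those sequences encode was not analysed here.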

How the results depend on the processing

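The lines share only repeat number 1, so the samples share a number and no known pairing. A fit with the replicate block, chosen after seeing the data, rests on 1 residual degree of freedom and takes nothing from suppression array 3, which is alone in its block; it called 308 probe sets (200 higher, 108 lower; higher share 64.9%), and 85 of the 114 named ones were no longer called. It turned the uncalled HSFB2C probe set below to -0.77 and TIFY5 to 0.16, and gave medians of 0.049 for light harvesting genes, -0.046 for NAC factors and -0.14 for MADS factors. The 1987 calls became 52 without the variance trend (39 higher, 13 lower; higher share 75% against 55.4%) and 1242 without the filter on low values (737 higher, 505 lower). With the 4 transgenic arrays alone in the fit there were 1389, after quantile normalization 2038, with a pseudocount of 1 1974 and of 16 2031, and with the filter on the 4 transgenic arrays 2019. With 1 array left out, 441 to 1390 were called, 256 to 779 higher and 185 to 615 lower; these fits hold fewer samples, and without suppression array 1 the share of higher calls was 67.2%. Calls shared with the 1987 had the same direction in every alternative run. Outside the block fit and quantile normalization this was fixed in advance, because the lines did not overlap in any called probe set. Without the trend, 107 of the 114 named probe sets were no longer called, and 20 with the 4 arrays alone; the cause was not tested. With 1 array left out, estimates of some uncalled probe sets changed sign: HSFB2C (1 of its 3 probe sets) ran from -0.63 to 1.60, HSFA2D (1 of its 2) from -0.17 to 0.073, GLK2 (1 of its 4) from -0.17 to 0.052 and TIFY5 from -0.64 to 0.40. List medians that moved were those of ethylene genes (-0.096 to 0.12) and MADS factors (-0.16 to 0.30) with 1 array left out, and of DREB factors, which was 0.29 with the 4 transgenic arrays alone in the fit or in the filter, against -0.20 in the report's setting. Low signal limits dim probe sets: 40 of those called higher and 29 of those called lower had both arrays of the dimmer line below the median.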
